A study of Mus musculus with 18 samples.

Results

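The 10 genes described here, Gfap, Vim, Serpina3n, Lcn2, Cd44, Osmr, Stat3, Ggta1, Aqp4 and Cebpd, are widely used as markers of reactive astrocytes. They were chosen by name from the 55487 genes of a table of read counts. Each was found once in the table. All 10 passed the filter on low counts, together with 17414 genes in all. The question asked of them is how their RNA levels differed between WT mice, a mouse model of Alzheimer's disease, and the same model lacking farnesyltransferase in forebrain neurons.

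By the study's account, bulk RNA of the frontal cortex was sequenced in 3 genotypes, each with 3 female and 3 male mice that were 9 to 10 months old. APP/PS1 mice carried the transgenes of line 85Dbo on a mixed B6C3 background and had no Cre. APP/PS1/FTnKO mice carried the same transgenes, homozygous floxed alleles of the farnesyltransferase β subunit (gene Fntb), and a CamKIIα-Cre transgene. This promoter is active in forebrain excitatory neurons, so astrocytes and other cells were meant to keep the enzyme. By the study's breeding scheme WT mice were littermates with the floxed alleles, without APP/PS1 and without Cre, and the APP/PS1 mice had the floxed alleles too. The deposited design text instead names C57BL/6J for WT, so the WT background is uncertain. Cre was present only in the knockout group, so the loss of Fntb and the presence of Cre cannot be told apart.

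Each mouse was sequenced once, to 15925432 to 21030935 counted reads. WT mouse 19622, a female, stood apart and was left out of the comparisons, as the study's methods left out 1 WT mouse. The tests therefore used 5 WT mice and 6 of each transgenic genotype, 17 in all. In mouse 19622 the summed level of 7 cerebellum markers was 2363 CPM (counts scaled to the normalized library size), against 20.3 to 69.1 in the other 17 mice. The sum of 6 forebrain markers in it was 5.39, against 209.8 to 416 in the others. In these regional markers its library was thus unlike the other 17, and its levels are not to be read as those of WT frontal cortex. How this came about was not tested. The RNA integrity number (RIN), a score of how intact the RNA was, was 8.5 to 8.8 in the WT mice, while APP/PS1 mice had 7.7 to 8.7 and the knockout group 7.6 to 8.7. App, whose reads include the transgene's, was 1492 to 1613 CPM in the 5 WT mice and 2117 CPM or more in all 12 transgenic mice. Fntb averaged 20.2 ± 8.06 CPM (SD, n = 6) in APP/PS1 and 11.8 ± 2.76 (SD, n = 6) after the knockout, which was not called by edgeR (log2 fold change -0.77, adjusted p = 0.251). Bulk cortex holds other cells with an intact Fntb.

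Astrocytes are glia that take up glutamate, buffer potassium and line blood vessels with their endfeet. Near injury or amyloid plaques they become reactive: they thicken their intermediate filament skeleton, built from GFAP and vimentin, and secrete acute phase proteins. Cytokines of the interleukin-6 family signal through receptors such as the oncostatin M receptor to JAK kinases and the transcription factor STAT3, a well studied route to this state. Several of these genes are also made by microglia, blood vessels or neurons, so their levels in bulk tissue need not be those of astrocytes alone. In bulk tissue, fewer cells of a type and less RNA per cell cannot be told apart.

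Of the 10 genes, 8 had a 300-base promoter window in the RefSeq set used (GRCm38.p6, 250 bases before the RefSeq start site and 50 after it), and Aqp4 and Cebpd had none. These windows were searched on both strands for the STAT motif TTCNNNGAA and its longer form TTCCNGGAA, for the C/EBP motif TTGCNNAA, and for the AP-1 motif TGANTCA. A match was found in 4 of the 8 windows, and these are shown, 3 from genes that rose in APP/PS1 mice and that of Lcn2, for which no difference was shown. Capitals mark the match.
Gfap, chr11:102897151-102897450, minus strand: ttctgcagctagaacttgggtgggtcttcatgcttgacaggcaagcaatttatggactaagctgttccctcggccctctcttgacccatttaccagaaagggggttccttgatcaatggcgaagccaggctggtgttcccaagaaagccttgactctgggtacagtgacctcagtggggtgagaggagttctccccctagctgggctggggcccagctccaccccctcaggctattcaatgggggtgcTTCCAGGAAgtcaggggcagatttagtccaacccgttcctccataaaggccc
Osmr, chr15:6874264-6874563, minus strand: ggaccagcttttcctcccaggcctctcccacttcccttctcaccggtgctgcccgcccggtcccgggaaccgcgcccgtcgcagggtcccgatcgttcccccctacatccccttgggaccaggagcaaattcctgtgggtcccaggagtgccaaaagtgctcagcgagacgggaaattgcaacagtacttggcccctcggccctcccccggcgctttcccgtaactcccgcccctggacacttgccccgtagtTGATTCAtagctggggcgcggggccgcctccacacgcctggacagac
Ggta1, chr2:35461400-35461699, minus strand: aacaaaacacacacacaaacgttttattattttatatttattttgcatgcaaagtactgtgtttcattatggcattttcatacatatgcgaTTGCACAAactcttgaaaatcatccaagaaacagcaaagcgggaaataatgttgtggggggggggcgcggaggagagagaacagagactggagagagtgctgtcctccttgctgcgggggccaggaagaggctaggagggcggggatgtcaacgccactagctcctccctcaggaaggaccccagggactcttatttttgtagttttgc
Lcn2, chr2:32387690-32387989, minus strand: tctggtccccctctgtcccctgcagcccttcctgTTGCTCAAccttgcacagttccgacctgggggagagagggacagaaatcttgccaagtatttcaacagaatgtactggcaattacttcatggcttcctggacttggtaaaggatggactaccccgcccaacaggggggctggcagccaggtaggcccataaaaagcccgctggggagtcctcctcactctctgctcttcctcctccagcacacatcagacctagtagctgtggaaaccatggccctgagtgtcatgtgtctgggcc

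The Gfap match fits both STAT forms and begins 2 bases before the RefSeq start site. The shorter form was present in 8.3% and the longer form in 1.15% of the 32851 mouse promoter windows. The AP-1 match in Osmr begins at base 4, counted with the start site as the first base, and 7.81% of windows held that motif. The C/EBP matches of Ggta1 and Lcn2 begin 159 and 216 bases before the start sites, and 10.8% of windows held that motif. The windows of Vim, Serpina3n, Cd44 and Stat3 held none of these letters. A match describes the sequence and does not show that a factor binds there. GENCODE M21 places the Gfap gene at chr11:102887336-102900912, so that its RefSeq start site lies inside the annotated gene.

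Compared with WT mice, APP/PS1 mice had higher levels of 7 of the 10 genes, namely Gfap, Vim, Serpina3n, Osmr, Stat3, Ggta1 and Cebpd. Among all 17414 genes, 1.32% were called higher and 1.50% in either direction (edgeR quasi-likelihood test, adjusted p under 0.05 over all genes). The median log2 fold change was 1.005 over the 10 genes, against -0.00233 over all genes tested. The largest difference was that of Gfap and the smallest called one that of Stat3. Cd44 and Aqp4 missed the threshold narrowly. They were called in 5 and 8 of 28 alternative fits, for both among them DESeq2 on 17 mice. Lcn2 was too variable between mice to give a direction.

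Gfap, the main intermediate filament protein of astrocytes, was at 133 and 88.1 CPM in the female and at 97.5, 93.5 and 147 CPM in the male WT mice. In APP/PS1 mice it ranged from 335 to 1246 CPM, with a median of 836, and in APP/PS1/FTnKO mice from 281 to 1082 CPM, with a median of 617. Both transgenic groups lay wholly above WT, and they overlapped each other widely. Gfap was 6.87-fold higher in APP/PS1 than in WT (log2 fold change 2.78, SE 0.35, edgeR adjusted p = 0.000323). Per length, mean Gfap was 26.5 RPKM (reads scaled to library size and exon length) in WT and 187 RPKM in APP/PS1 mice. All 6 APP/PS1 mice were above every WT mouse for 4 of the 10 genes (Gfap, Serpina3n, Osmr and Stat3), against 1.71% of all genes tested.

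Vim encodes vimentin, which co-assembles with GFAP in reactive astrocytes and is also made by blood vessel cells. It was at 38.6 and 31.4 CPM in female and 33.8, 37.2 and 33.0 CPM in male WT mice. Its range was 32.0 to 92.7 CPM (median 74.6) in APP/PS1 and 34.0 to 71.4 CPM (median 59.8) in APP/PS1/FTnKO mice. In each transgenic group 5 of 6 mice lay above all WT mice, and 1 male, APP/PS1 mouse 19744 or APP/PS1/FTnKO mouse 18973, lay among them. The log2 fold change of APP/PS1 against WT was 0.93 (SE 0.20, edgeR adjusted p = 0.0258), a call that was lost in 11 of 28 alternative fits. The other filament genes and their linkers gave no calls: of 11 tested, among them Nes, Synm and Plec, 0 were called in any of the 3 comparisons, and their median log2 fold change was -0.04 in APP/PS1 against WT. Over all genes 1.50% were called in APP/PS1 against WT, 3.87% in APP/PS1/FTnKO against WT and 0.327% between the transgenic groups. At these shares a count of 0 in so short a list, here and for the other lists, does not set it apart.

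Serpina3n, a secreted serine protease inhibitor of the acute phase response, was at 15.6 and 13.5 CPM in female and 15.2, 14.5 and 19.0 CPM in male WT mice. It ranged from 22.8 to 74.9 CPM (median 51.1) in APP/PS1 and from 23.8 to 60.1 CPM (median 47.1) in APP/PS1/FTnKO mice. No transgenic mouse was as low as the highest WT mouse. Against WT, the log2 fold change in APP/PS1 was 1.66 (SE 0.26, edgeR adjusted p = 0.00189). The 8 Serpina3 paralogs in the table, with which reads could be shared, summed to at most 1.29 CPM in any of the 17 mice.

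Osmr, the receptor subunit for oncostatin M, was at 7.69 and 7.39 CPM in female and 8.41, 6.20 and 7.39 CPM in male WT mice. It ranged from 11.8 to 29.0 CPM (median 17.4) in APP/PS1 and from 9.87 to 20.8 CPM (median 13.8) in APP/PS1/FTnKO mice, and every transgenic mouse was above every WT mouse. The log2 fold change of APP/PS1 against WT was 1.38 (SE 0.21, edgeR adjusted p = 0.00148). Stat3, the transcription factor at the end of this pathway, differed least among the called genes but also varied least between mice. Its levels were 63.8 and 65.7 CPM in female and 62.4, 62.3 and 71.2 CPM in male WT mice, 72.8 to 97.2 CPM (median 85.3) in APP/PS1, and 67.7 to 87.1 CPM (median 78.4) in APP/PS1/FTnKO mice. In APP/PS1 its log2 fold change against WT was 0.39 (SE 0.07, edgeR adjusted p = 0.00442). Stat3 shares 72 exon bases with Stat5a on the opposite strand.

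The rest of the interleukin-6 family and JAK-STAT pathway gave no calls. Of its 19 listed genes 15 were tested, and 0 of them were called by edgeR in any of the 3 comparisons, where 1.50%, 3.87% and 0.327% of all genes were called. The median log2 fold change was 0.01 in APP/PS1 against WT. The ligands Il6, Osm, Cntf and Il11 were too low to test. The shared receptor subunit Il6st was at 105 ± 5.22 CPM (SD, n = 5) in WT, 103 ± 7.73 (SD, n = 6) in APP/PS1 and 103 ± 9.16 (SD, n = 6) in APP/PS1/FTnKO mice. Socs3, a STAT3 target that feeds back on the pathway, averaged 3.77 ± 0.418 CPM (SD, n = 5) in WT and 4.80 ± 0.845 (SD, n = 6) in APP/PS1, a log2 fold change of 0.35 (edgeR adjusted p = 0.377).

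Cebpd, a transcription factor of the acute phase response, was at 1.42 and 1.44 CPM in female and 1.89, 0.900 and 1.34 CPM in male WT mice. It ranged from 1.23 to 5.48 CPM (median 3.49) in APP/PS1 and from 2.27 to 3.88 CPM (median 2.68) in APP/PS1/FTnKO mice. The knockout group lay wholly above WT, while APP/PS1 mouse 19744 lay among the WT mice. The log2 fold change of APP/PS1 against WT was 1.23 (SE 0.30, edgeR adjusted p = 0.0484), and this call, close to the threshold, was lost in 17 of 28 alternative fits. Cebpd shares 562 exon bases with Spidr on the opposite strand.

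Ggta1 encodes a galactosyltransferase that decorates cell surface glycans. It was at 6.21 and 4.67 CPM in female and 4.69, 3.998 and 4.60 CPM in male WT mice, 4.64 to 15.2 CPM (median 10.0) in APP/PS1, and 6.33 to 13.1 CPM (median 9.91) in APP/PS1/FTnKO mice. Only APP/PS1 mouse 19744 among the 12 transgenic mice lay within the WT range. APP/PS1 and WT mice differed by a log2 fold change of 1.08 (SE 0.23, edgeR adjusted p = 0.0203), lost in 8 of 28 alternative fits.

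Cd44, a cell surface receptor for hyaluronan, was at 2.25 and 3.78 CPM in female and 4.02, 1.80 and 2.33 CPM in male WT mice. It ranged from 2.76 to 9.29 CPM (median 5.23) in APP/PS1 and from 3.87 to 8.20 CPM (median 5.43) in APP/PS1/FTnKO mice, and each transgenic group had 1 mouse within the WT range. The log2 fold changes against WT were nearly equal, 0.93 (SE 0.24) in APP/PS1 and 0.91 (SE 0.24) in APP/PS1/FTnKO, yet they fell on opposite sides of the threshold, with edgeR adjusted p values of 0.0589 and 0.0406.

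Aqp4, the water channel of astrocyte endfeet, was at 141 and 117 CPM in female and 108, 117 and 124 CPM in male WT mice. It ranged from 138 to 195 CPM (median 174) in APP/PS1 and from 97.5 to 162 CPM (median 139) in APP/PS1/FTnKO mice. In APP/PS1, 5 of 6 mice lay above all WT mice, but only 3 of 6 knockout mice did, and 1 of them lay below all WT mice. Against WT, the log2 fold change in APP/PS1 was 0.46 (SE 0.12, edgeR adjusted p = 0.0536). The 8 genes that anchor Aqp4 at the endfoot or work beside it there, such as Dag1 and Kcnj10, gave 0 calls in any comparison and a median log2 fold change of 0.01 in APP/PS1 against WT.

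Lcn2, a secreted lipocalin that binds iron-carrying siderophores and is also made by neutrophils and blood vessels, was close to the limit of detection. It had 0 to 84 reads per mouse. It was at 0.237 and 1.89 CPM in female and 0.488, 0.09995 and 0.103 CPM in male WT mice, at 0 to 4.70 CPM (median 0.265) in APP/PS1, and at 0.120 to 0.855 CPM (median 0.310) in APP/PS1/FTnKO mice. A single APP/PS1 female, 19723, and a single WT female, 19053, held the 2 highest values. Its log2 fold change in APP/PS1 against WT was 0.70 with an SE of 0.86 (edgeR adjusted p = 0.759), so no difference was shown. Lcn2 was tested in only 21 of the 28 alternative fits. It failed the filter on low counts without APP/PS1 mouse 19723, but also without APP/PS1 mouse 16975 and in other fits. Without WT mouse 19053 the value was 1.70.

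**Figure D1:**
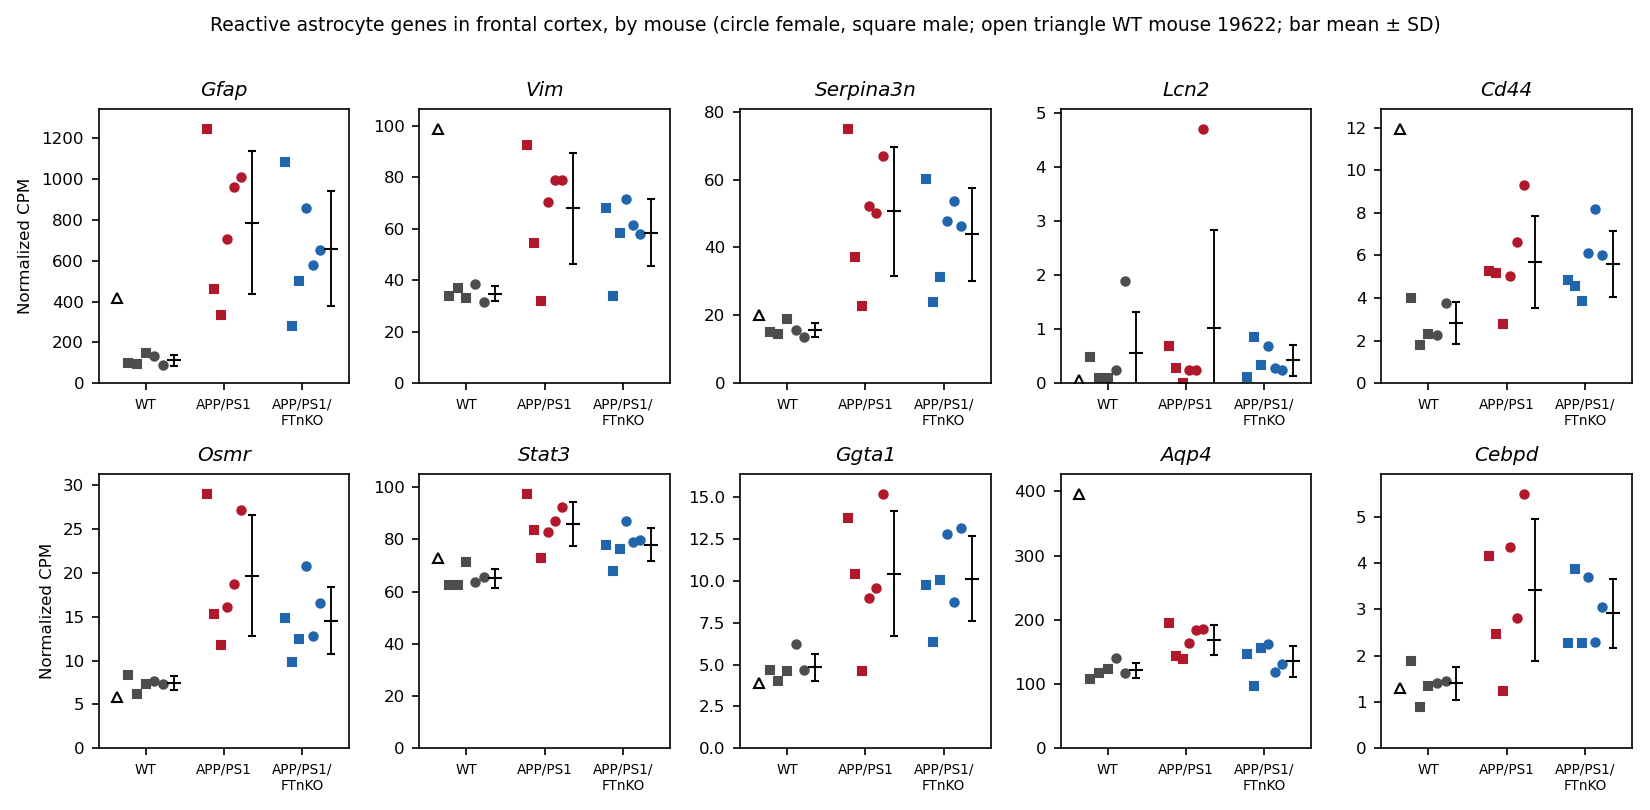
Normalized CPM (vertical axes, from 0) of the 10 genes in each mouse by genotype (horizontal axes), with circles for females, squares for males, an open triangle for WT mouse 19622 and bars for the mean ± SD of the other mice (the lower bars of Lcn2 in WT and APP/PS1 run below 0 and are clipped there). For Gfap the 5 WT mice form a narrow band, at 88.1 to 147, and both transgenic groups spread widely above it, at 281 to 1246, and overlap each other, while for Lcn2 and Aqp4 the transgenic groups overlap WT.

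Per length, the genes held nearly the same order in every genotype. In WT mice the mean was 26.5 ± 6.29 RPKM (SD, n = 5) for Gfap and 19.4 ± 1.96 for Aqp4, followed by Serpina3n at 7.53 ± 1.0, Vim at 7.34 ± 0.631 and Stat3 at 6.83 ± 0.388. These last 3 levels differed by less than the spread between mice. Ggta1 (1.03 ± 0.174), Osmr (0.612 ± 0.066), Cd44 (0.418 ± 0.147), Cebpd (0.374 ± 0.094) and Lcn2 (0.215 ± 0.289) were lower, and neighbours among the last 3 overlapped. In APP/PS1 mice Gfap, at 187 ± 82.7 RPKM (SD, n = 6), stood far above Aqp4, at 27.0 ± 3.75. Serpina3n rose to 24.5 ± 9.22 RPKM, next to Aqp4 and within its own spread of it. In APP/PS1/FTnKO mice the levels were 156 ± 66.5 RPKM (SD, n = 6) for Gfap, 21.7 ± 3.91 for Aqp4 and 21.3 ± 6.65 for Serpina3n. The ratio of Gfap reads to Aqp4 reads was 0.756 to 1.19 in WT mice, whereas APP/PS1 mice had 2.43 to 6.39 and knockout mice 2.89 to 7.40, with no overlap between WT and either transgenic group.

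When the knockout was set against APP/PS1, 0 of the 10 genes were called, against 0.327% of all genes called in either direction and 0.144% called lower. DESeq2 also called 0 of the 10, against 1.38% of all genes. All 10 log2 fold changes were negative, with a median of -0.21, while 50.5% of all tested genes had a negative value and the median over all genes was -0.00161. The levels of most of these genes rise and fall together from mouse to mouse, so the 10 signs are not separate observations, and those of Gfap, Serpina3n, Cd44 and Ggta1 turned positive in some alternative fits. At an unadjusted p under 0.05, 3 of the 10 were lower, against 5.69% of all genes.

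Those 3 were Aqp4, Osmr and Stat3. Aqp4 had a log2 fold change of -0.31 (SE 0.11, edgeR adjusted p = 0.269), and 3 of 6 knockout mice lay below all APP/PS1 mice. Osmr had -0.44 (SE 0.19, edgeR adjusted p = 0.379) and Stat3 had -0.14 (SE 0.06, edgeR adjusted p = 0.409). For Osmr and for Stat3, 1 knockout mouse lay below all APP/PS1 mice. None of these passed the correction over all genes. The 95% interval of Gfap ran from 0.542 to 1.31 times the APP/PS1 level, and that of Serpina3n from 0.616 to 1.22 times. For Cd44 it ran from 0.724 to 1.34 and for Ggta1 from 0.717 to 1.31 times. These intervals hold falls as well as rises, so equal levels were not shown. For Vim the interval was 0.657 to 1.14 times, for Cebpd 0.589 to 1.27 times, and for Lcn2 the wide span of 0.142 to 1.70 times.

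Compared with WT, APP/PS1/FTnKO mice had higher levels of 5 of the 10 genes, against 2.22% of all genes called higher and 3.87% in either direction. They were Gfap (log2 fold change 2.53, edgeR adjusted p = 0.00098), Serpina3n (1.46, adjusted p = 0.00632), Ggta1 (1.03, adjusted p = 0.0198), Osmr (0.94, adjusted p = 0.0228) and Cd44. The call of Cd44 was lost in 13 of 28 alternative fits, among them both that took RIN into account, that of Osmr in 5 and that of Ggta1 in 3. Stat3 had a value of 0.25 (edgeR adjusted p = 0.0501), Vim of 0.72 (adjusted p = 0.0566) and Cebpd of 1.03 (adjusted p = 0.0634), all just short of the threshold. Stat3, Vim and Cebpd were called in 11, 7 and 6 of 28 alternative fits, for each among them DESeq2 on 17 mice. Aqp4 had a value of 0.15 (edgeR adjusted p = 0.473). Lcn2 had a value of -0.33 with an SE of 0.94 (edgeR adjusted p = 0.87). All 6 knockout mice were above every WT mouse for 5 genes (Gfap, Serpina3n, Osmr, Ggta1 and Cebpd), against 2.75% of all genes tested. This comparison and that of APP/PS1 share the same 5 WT mice.

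**Figure D2:**
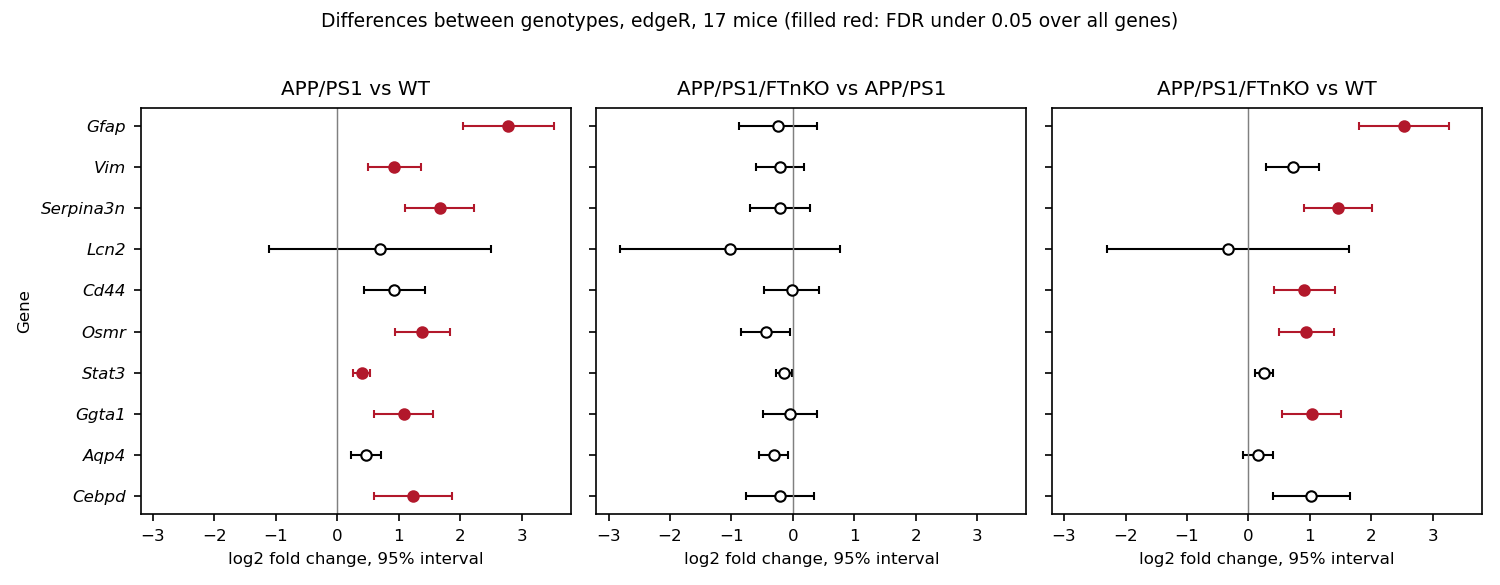
Log2 fold changes (horizontal axes) of the 10 genes (vertical axis) in the 3 comparisons, with 95% intervals from the edgeR fit to 17 mice, where filled red points have an adjusted p under 0.05 over all genes. The points of both comparisons with WT lie right of 0 except Lcn2 in APP/PS1/FTnKO, and 7 and 5 are filled, while all 10 points of APP/PS1/FTnKO against APP/PS1 lie left of 0 and 0 are filled.

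Within a transgenic genotype, the same mice were often low or high for several genes. APP/PS1 male 19744 had the lowest value of its group for all 10 genes, and APP/PS1/FTnKO male 18973 had the lowest of its group for 7 but the highest for 2, Lcn2 and Cebpd. Knockout male 16974 was the lowest for 2 genes and the highest for another 2. In contrast, APP/PS1 male 16975 had the highest value of its group for 6 genes, and female 19723 for the other 4. App was at 2801 CPM in mouse 19744 and at 2983 CPM in mouse 18973. Clec7a, a marker of activated microglia, was also the lowest of its group in both mice, at 4.70 CPM in 19744 and 2.45 CPM in 18973, yet stayed above the WT maximum of 0.556 CPM. Without mouse 19744, 9 of the 10 genes were called in APP/PS1 against WT, all but Lcn2, while the calls over all genes rose as well, from 261 of 17414 to 465 of 17374.

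**Figure D3:**
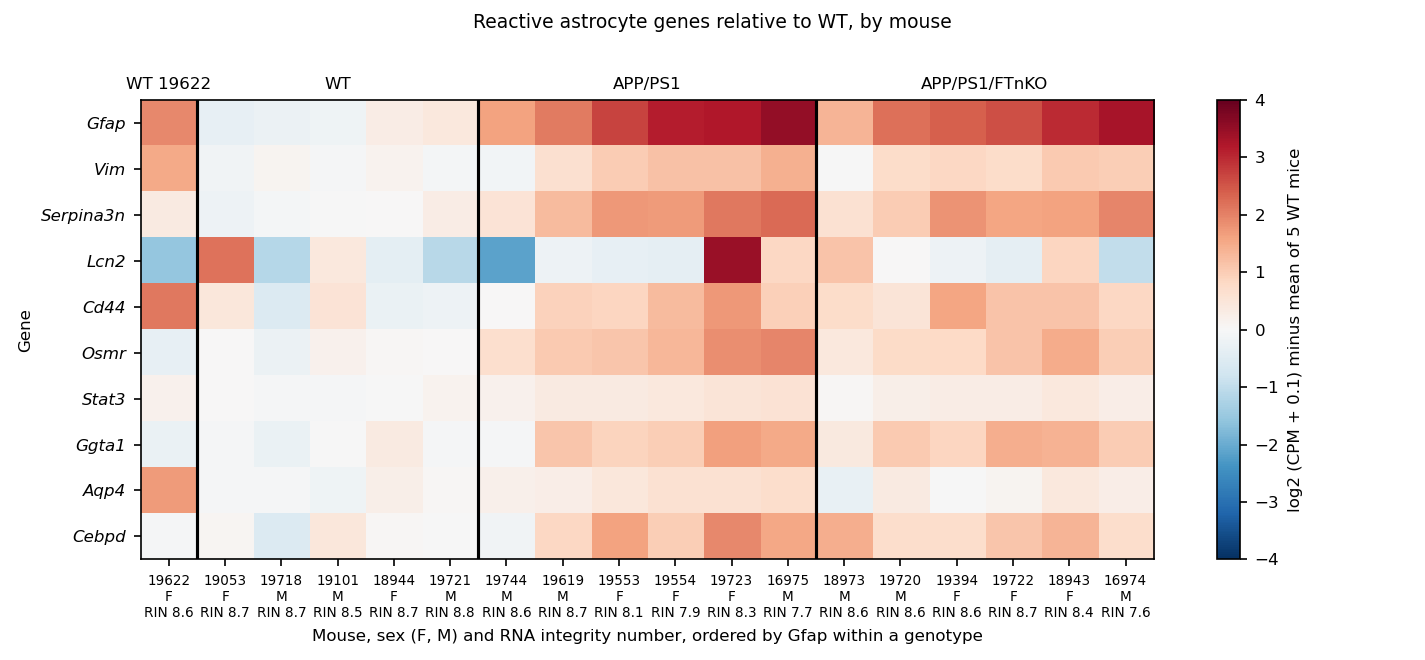
Colour gives the log2 of CPM plus 0.1, minus the mean of the 5 WT mice, for the 10 genes (vertical axis) in 18 mice (horizontal axis, with sex and RIN), ordered by Gfap within a genotype. Most genes darken with Gfap from left to right in APP/PS1 and less evenly in the knockout group, Lcn2 follows in neither, and WT mouse 19622, at the left, is red for Gfap, Vim, Cd44 and Aqp4 but not for Osmr or Ggta1.

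RIN differed between mice with high and low Gfap. The 4 APP/PS1 mice with the most Gfap, at 1246, 1011, 964 and 708 CPM, had RINs of 7.7, 8.3, 7.9 and 8.1, and the 2 with the least, at 461 and 335 CPM, had RINs of 8.7 and 8.6. Among the APP/PS1/FTnKO mice the highest Gfap, 1082 CPM in mouse 16974, came with the lowest RIN, 7.6, and the next, 859 CPM in mouse 18943, with the next lowest RIN, 8.4. Not all genes shared this order: mouse 16974 had the lowest Lcn2 of its group and, with mouse 19720, the lowest Cebpd (2.27 CPM in both), and the highest Cd44 there was in mouse 19394, with a RIN of 8.6. All WT mice had a RIN of at least 8.5. With RIN as a covariate, 3 of the 10 genes were called in APP/PS1 against WT (Gfap, Serpina3n and Osmr), and with the 3 mice of a RIN under 8 left out, 4 were called (those and Stat3). Over all genes the calls fell too, from 261 to 84 of 17414 with the covariate and to 120 of 17413 without those mice. The log2 fold change of Gfap was 2.07 with the covariate (edgeR adjusted p = 0.000679) and 2.31 without the 3 low-RIN mice (adjusted p = 0.000253). That of Vim was 0.56 with the covariate (adjusted p = 0.323). For APP/PS1/FTnKO against WT, 4 genes were called under either choice, with 388 and 368 calls over all genes in place of 674. Of the knockout against APP/PS1, the value of Gfap with the covariate was 0.01 (edgeR adjusted p = 0.986).

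**Figure D4:**
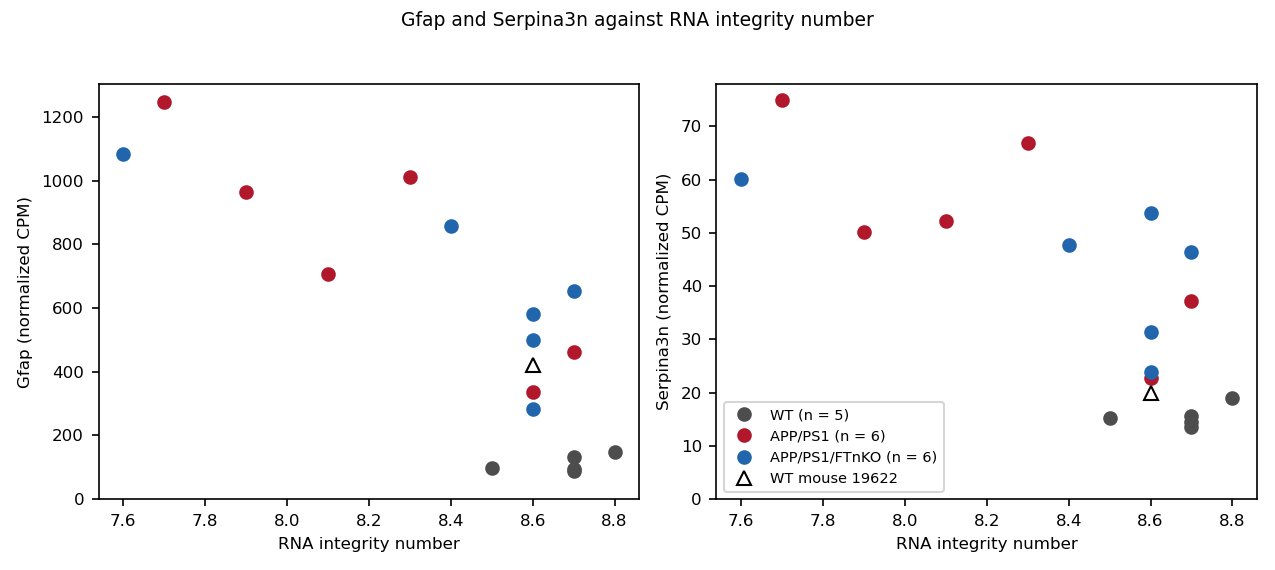
Normalized CPM of Gfap and Serpina3n (vertical axes, from 0) against RIN (horizontal axes) in each mouse, coloured by genotype, with WT mouse 19622 as an open triangle. Within both transgenic groups the mice with the lowest RIN, 7.7 and 7.6, hold the highest value of Gfap, and at RINs of 8.6 and above all transgenic mice still lie above the 5 WT mice.

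In APP/PS1 mice the mean of Gfap was 894 CPM in 3 females and 681 CPM in 3 males, among them mouse 19744, the lowest of its group. The female mean was the higher for 10 of the 10 genes in APP/PS1, 9 in APP/PS1/FTnKO and 7 in WT. Most of these genes move together from mouse to mouse, so these counts are not separate observations. A difference in level between the sexes was not tested. No sex difference in the genotype effects was shown. A model with a sex by genotype interaction called 0 of the 10 genes in any of the 3 contrasts (edgeR, 0.00% of all genes called), and 0 had an unadjusted p under 0.05, the smallest being 0.154. With 2 or 3 mice in a cell of this design only a large interaction could have been detected, and the interval for Gfap in APP/PS1 against WT ran from 0.273 to 2.04 times.

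Within genotype and sex, 27 of the 45 pairs of the 10 genes had a Pearson r above 0.5 over the 17 mice, and 1 pair, Cd44 and Aqp4, was below 0. These are values of log2 CPM after the means of genotype and sex were taken out, in libraries that share their RNA quality and tissue makeup, and they are given as a description. Gfap was most like Serpina3n (r = 0.917, Spearman rho = 0.816), Vim (r = 0.885, rho = 0.787), Stat3 (r = 0.823, rho = 0.721), Aqp4 (r = 0.810, rho = 0.794), Osmr (r = 0.800, rho = 0.843) and Ggta1 (r = 0.720, rho = 0.593). Without the 2 mice farthest from the median of Gfap these 6 r values lay between 0.686 and 0.857. Cebpd (r = 0.329), Cd44 (r = 0.273) and Lcn2 (r = 0.050) followed Gfap little.

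Across the 17413 other genes tested, the 5 outside the list with the highest r to Gfap were Fermt3 (0.957), Cyth4 (0.951), Fxyd1 (0.937), Grn (0.937) and Vsir (0.937). Fermt3, the integrin activator kindlin-3, Cyth4, an exchange factor for ARF proteins, and Vsir, an immune checkpoint receptor, are genes of blood-derived and microglial cells. Grn encodes the lysosomal protein progranulin, and Fxyd1 a regulator of the sodium pump. All 5 were called higher in APP/PS1 than in WT, with log2 fold changes of 0.89 for Fermt3 (edgeR adjusted p = 0.00582), 0.92 for Cyth4 (0.00296), 0.61 for Fxyd1 (0.0401), 0.82 for Grn (0.000655) and 0.85 for Vsir (0.00698). The call of Fxyd1 was lost in 18 of 28 alternative fits, and those of Fermt3 and Vsir in 1 each, with RIN as a covariate. For 4 markers of resting astrocytes, r to Gfap was 0.775 for Gja1, which forms gap junctions, 0.754 for the folate enzyme gene Aldh1l1, and 0.622 and 0.213 for the glutamate transporters Slc1a3 and Slc1a2.

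Markers of resting astrocytes gave no calls. Of 14 homeostatic astrocyte genes, 0 were called by edgeR in any comparison, although all 14 had a positive log2 fold change in APP/PS1 against WT (median 0.15). None was at 0. They summed to 6851 to 7940 CPM in WT mice, and the sums of APP/PS1 mice, 6717 to 8827, and of knockout mice, 6742 to 8555, covered that range. Slc1a2 averaged 3178 ± 356 CPM (SD, n = 5) in WT, 3163 ± 245 (SD, n = 6) in APP/PS1 and 3138 ± 281 (SD, n = 6) in APP/PS1/FTnKO mice. Of 13 genes linked to astrocytes around plaques, 4 were called higher in APP/PS1 than in WT, against 1.32% of all genes: C4b (log2 fold change 2.91, edgeR adjusted p = 0.00042), Cd9 (1.20, 0.002), Clu (0.44, 0.0431) and Ctsb (0.32, 0.0139). The call of Clu was lost in 16 of 28 alternative fits, and that of Ctsb in 3, among them both that took RIN into account. C4b, a complement component, was thus the closest in size to Gfap, at 25.9 to 40.4 CPM in WT mice, with 70.4 to 453 in the APP/PS1 group and 85.0 to 319 in the knockout group. Of these 13, 5 were called in APP/PS1/FTnKO against WT, the same 4 and Cst3, against 2.22% of all genes called higher, and 0 between the transgenic groups. In that comparison with WT the call of Cst3 was lost in 15 of 28 alternative fits, that of Clu in 12, that of Ctsb in 8 and that of Cd9 in 1.

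Among 6 other tested genes of the pan-reactive list, 3 were called higher in APP/PS1 than in WT, against 1.32% of all genes: Aspg (log2 fold change 1.57, edgeR adjusted p = 0.0064), Timp1, a metalloprotease inhibitor (1.41, 0.043), and Cxcl10, a chemokine (2.19, 0.0407). Timp1 and Cxcl10 were low, at 0.609 and 1.41 CPM on average in APP/PS1 mice, and their calls were lost in 14 of 20 and 15 of 28 alternative fits. The call of Aspg was lost in 1 of 28, with RIN as a covariate. In APP/PS1/FTnKO against WT 2 of the 6 were called higher, against 2.22% of all genes: Aspg (log2 fold change 1.16, edgeR adjusted p = 0.0329, lost in 13 of 28 alternative fits) and Cxcl10 (2.33, 0.019, lost in 3). Ggta1, called higher than WT in both transgenic groups, belongs to the so-called A1 set, induced by inflammatory stimuli. Of 10 other tested genes of that set, 0 were called in APP/PS1 against WT, where their median log2 fold change was 0.36. In APP/PS1/FTnKO against WT 1 of these 10 was called higher, against 2.22% of all genes: H2-T23 (log2 fold change 0.93, edgeR adjusted p = 0.021, lost in 4 of 28 alternative fits). H2-T23 belongs to a family of similar MHC genes that could share reads. Of 10 A2 genes, a set first described after ischemia, 1 was called higher in APP/PS1 than in WT, Cd14 (log2 fold change 1.45, edgeR adjusted p = 0.0203). Cd14 is also a receptor of microglia and lost its call in 8 of 28 alternative fits. It was also the 1 A2 gene called higher in the knockout than in WT (1.22, edgeR adjusted p = 0.0349, lost in 9 of 28). Among the genes of all lists, only Fkbp5 was called in APP/PS1/FTnKO against APP/PS1. Fkbp5, a chaperone induced by glucocorticoids, was lower at 27.9 ± 2.88 CPM (SD, n = 6) than the 39.5 ± 5.80 CPM (SD, n = 6) of APP/PS1 mice (log2 fold change -0.50, edgeR adjusted p = 0.0356), and the call was lost in 12 of 28 alternative fits.

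Microglial genes moved with the reactive astrocyte genes. Of 8 markers of activated microglia, 7 were called higher in APP/PS1 than in WT and 7 in APP/PS1/FTnKO than in WT, against 1.32% and 2.22% of all genes, and 0 differed between the transgenic groups by edgeR. None was at 0 throughout a group. They summed to 126 to 145 CPM in WT mice, below the 206 to 452 of APP/PS1 and the 169 to 362 of knockout mice. Cst7 went from at most 0.177 CPM in WT to 11.7 to 53.4 CPM in APP/PS1 mice. Of 10 tested genes for signals from microglia to astrocytes and their receptors, 3 were called higher in APP/PS1 than in WT, the complement genes C1qa (log2 fold change 1.43, edgeR adjusted p = 0.000757) and C1qc (1.16, 0.0253), and the receptor Tgfbr1 (0.47, 0.0393). The calls of C1qc and Tgfbr1 were lost in 10 and 12 of 28 alternative fits. Il1b and Tnf were too low to test. The part of microglial RNA in the levels of Stat3, Cebpd, Cd44 or Vim was not tested. Of 6 endothelial, 7 mural and fibroblast, and 6 oligodendrocyte markers, 0 were called in any comparison. Of 6 neuronal markers Slc17a7 fell in the knockout compared with WT (log2 fold change -0.46, edgeR adjusted p = 0.0396), a call lost in 13 of 28 alternative fits.

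WT mouse 19622 showed high levels of some of these genes, but of another kind. On a scaling of all 18 mice, it was above all other WT mice for 6 genes, and for Aqp4, Cd44, Gfap and Vim by a wide margin. Aqp4 was at 395 CPM, 3.26 times the mean of the other WT mice and above the APP/PS1 maximum of 196. Cd44, at 11.9 CPM, and Vim, at 98.7 CPM, also exceeded every APP/PS1 mouse, whose maxima were 9.30 and 93.2 CPM. Gfap, at 420 CPM, was 3.75 times the mean of the other WT mice and within the APP/PS1 range. In contrast, Osmr (5.84 CPM) and Ggta1 (3.93 CPM) were below all other WT mice, Cebpd (1.31 CPM) was within their range, and Serpina3n (20.0 CPM) was just above their maximum of 19.0. Its ratio of Gfap reads to Aqp4 reads, 1.06, was within the range of the WT mice. Its sum of activated microglia markers was 84.5 CPM, below all other mice.

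**Figure D5:**
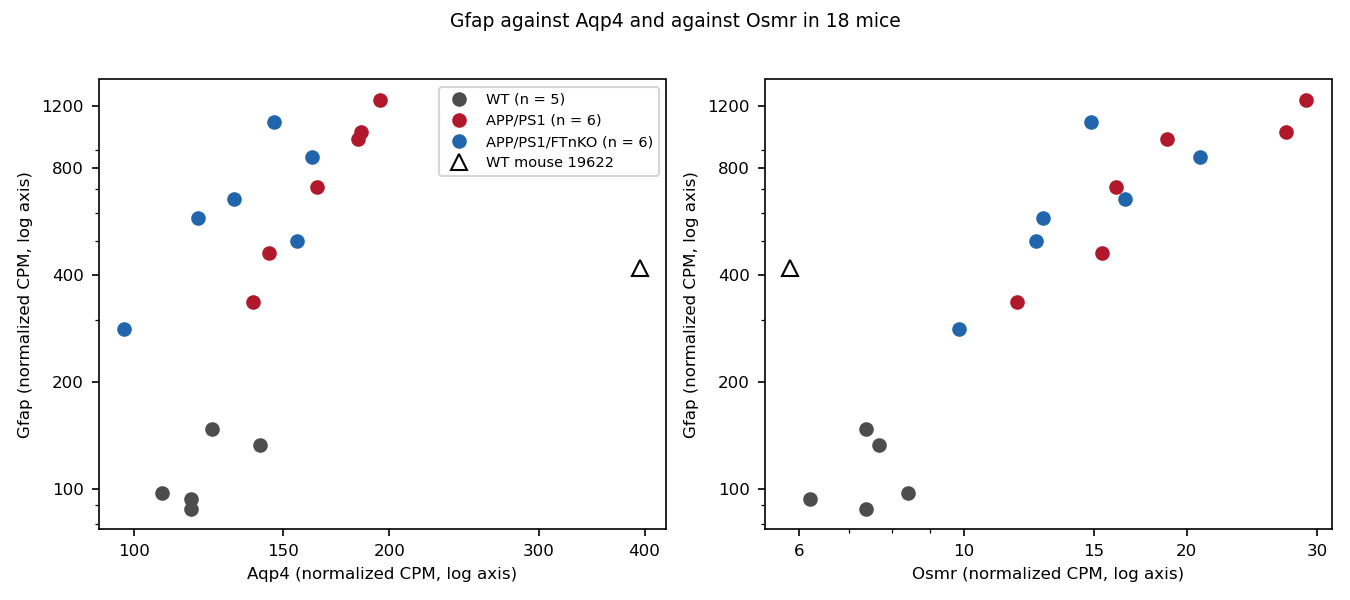
Normalized CPM of Gfap (vertical log axes) against Aqp4 and against Osmr (horizontal log axes) in 18 mice by genotype, with WT mouse 19622 as an open triangle. Mouse 19622 has the most Aqp4, 395, and the least Osmr, 5.84, of all 18 mice, and lies apart from the band formed by the others in both panels.

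With this mouse included, 6 of 9 tested genes were called in APP/PS1 against WT and 4 in APP/PS1/FTnKO against WT, against 1.13% and 1.22% of all genes called higher. Vim was lost in the former and Cd44 in the latter, while Lcn2 failed the filter. The value of Aqp4 in APP/PS1/FTnKO against WT then turned from 0.15 to -0.25. Between the transgenic groups no gene of the 10 was called with or without it, and with it 0.0116% of all genes were called in either direction.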

How the data were processed

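The study describes stranded mRNA libraries from frontal cortical RNA of 18 mice. Reads had been trimmed (Trimmomatic 0.33) and aligned to GRCm38 (HISAT2 2.1.0) by the authors, who then counted reads per Ensembl gene with featureCounts and deposited these counts without normalization. Its version and strand setting are not given in the sources. Without the strand setting, reads of genes that overlap on opposite strands cannot be assigned with certainty. All 18 columns of the table were used or examined, and 0 were left unassigned.

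Counts were tested in R 4.3.3 with the edgeR 4.0.16 quasi-likelihood F test on 17 mice, in 1 fit of the 3 genotypes with sex added as a term, after TMM scaling and the filterByExpr filter (minimum count 10), with Benjamini-Hochberg adjustment over all 17414 genes at 0.05. CPM values used the same normalized library sizes. RPKM values used the exon lengths of GENCODE M21 (GRCm38), which covered 99.53% of the genes. Total counts were 15925432 to 21030935 per mouse, and counting error weighed most on Lcn2 (0 to 84 reads per mouse), Cebpd (18 to 98) and Cd44 (36 to 175). WT mouse 19622 was left out because the study left out 1 WT outlier, and its own values were set on the scaling of all 18 mice, which moved Gfap by at most 0.012 on the log2 scale. As alternatives, the filter was dropped or set to at least 1 CPM in at least 5 mice, RLE normalization replaced TMM, the sex term was dropped, RIN was added as a covariate, mice with a RIN under 8 were left out, the fit was limited to the 2 genotypes compared, mouse 19622 was put back, each mouse was left out once, and DESeq2 1.42.0 or limma 3.58.1 (voom) replaced edgeR. The same alternatives for genes outside the 10 were added after seeing the data. Likeness to Gfap was Pearson's r of log2 CPM (prior count 2) after removal of genotype and sex means. The tools were tested on simulated data. Mice are separate animals, and each gave 1 library.

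The 10 genes and all other lists were chosen with earlier results of these data known. Beside the 10 genes, up to 5 called genes of each list (smallest p first), genes on which a sentence turns, and the 5 genes most like Gfap were named. Promoter windows came from RefSeq (GRCm38.p6).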

Additional observations from a re-analysis of the deposited data

Results flagged for a closer look

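In the 30 groups of values formed by 10 genes and 3 genotypes, 3 single mice lay far from the rest of their group by Dixon's criterion, which chance exceeds in about 1 of 20 groups. Vim in APP/PS1/FTnKO mouse 18973 was 34.0 CPM, with the next lowest mouse at 58.0. Lcn2 in WT mouse 19053 was 1.89 CPM, with the next highest at 0.488. Lcn2 in APP/PS1 mouse 19723 was 4.70 CPM, with the next highest at 0.683.

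WT mouse 19622, which entered no comparison, was above all other WT mice for 6 of the 10 genes, on the scaling of all 18 mice. Gfap was 420 CPM there against at most 147, Vim 98.7 against at most 38.5, Cd44 11.9 against at most 4.01 and Aqp4 395 against at most 140. Serpina3n was 20.0 CPM against at most 19.0 and Stat3 72.7 against at most 71.3. Beside these values, ependyma and choroid plexus markers summed to 1370 CPM and oligodendrocyte markers to 10757 CPM in this mouse, against at most 465 and 7518 in the other 17 mice. The part of tissue makeup in its values was not tested.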

How the results depend on the processing

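Gfap and Serpina3n were called higher than WT in both transgenic groups, and Osmr in APP/PS1, under all alternatives run. The number of called genes among the 10 in APP/PS1 against WT was 9 by DESeq2 on 17 mice and 9 without a filter. It was 3 with RIN as a covariate, 4 in mice with a RIN of at least 8, and 4 to 9 when 1 mouse was left out (4 without APP/PS1 mice 16975 or 19723 or WT mouse 19053). Over all genes the calls went from 261 to 458, 452, 84 and 120 in that order, and to 124 to 465 when 1 mouse was left out. In APP/PS1/FTnKO against WT it was 8 by DESeq2 on 17 mice, without a filter and in the 2 genotypes alone, and 2 to 8 when 1 mouse was left out (2 without mouse 16974, 19718 or 19053, 3 without 18943 or 18944, and 8 without 19744). Over all genes the calls there were 674, then 1302 by DESeq2, 971 without a filter, 859 in the 2 genotypes alone, and 206 to 987 when 1 mouse was left out. For the sex by genotype interaction and between the transgenic groups, 0 of the 10 genes were called under every alternative run. Over all genes the calls between the transgenic groups were 57, then 261 with RIN as a covariate, 244 by DESeq2 on 17 mice and 2 in all 18 mice, and those of the interaction were 0, except 116 without a filter and 2 without APP/PS1 mouse 19554.

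Some log2 fold changes changed sign. Between the transgenic groups, Gfap was 0.01198 with RIN as a covariate and -0.52 to 0.0245 with 1 mouse left out, and Serpina3n was -0.37 to 0.0041 with 1 mouse left out. Cd44 was 0.0096 by limma-voom, 0.0269 with RIN as a covariate, 0.0020 at a RIN of at least 8 and -0.14 to 0.11 with 1 mouse left out. Ggta1 was 0.0189, 0.0240 and 0.0215 in the first 3 of these and -0.18 to 0.10 with 1 mouse left out. In APP/PS1/FTnKO against WT, Lcn2 was 0.17 by DESeq2 on 18 mice and -0.64 to 0.62 with 1 mouse left out, and Aqp4 was -0.246 by edgeR and -0.249 by DESeq2 on 18 mice. The causes were not tested. Of the 51 results for named genes outside the 10, 0 changed sign and 22 kept their side of the threshold under every alternative.

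The exact test planned for genes that fail the filter was not needed in 17 mice, and was not run in 18. No paired analysis was possible because the replicate numbers only name the mice. Lcn2 had 0 to 84 reads per mouse.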
